A study of Mus musculus with 8 samples.

Results

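The genes described here encode the proteins of the mitochondrial ribosome, and were taken as every row of the expression table whose symbol is Mrpl or Mrps followed by a number and at most 1 letter, pseudogenes left out. This gave 78 of 48500 genes, 49 named for the large subunit (Mrpl) and 29 for the small subunit (Mrps), on 17 chromosomes. Expression was measured by RNA-seq in leukaemia stem cells, sorted from mouse bone marrow as GFP-positive, c-Kit-positive and Gr-1-negative cells, about 10000 per library. By the labels HOXA9 and MEIS1 drove the acute myeloid leukaemia of both groups. In the table Hoxa9 was at 0.569 to 1.90 FPKM in WT and 1.70 to 6.38 FPKM in Nynrin-KO (log2 change 1.08, limma adjusted p = 0.0397). Meis1 was at 0.664 to 0.898 and 2.03 to 5.13 FPKM (log2 change 1.33, limma adjusted p = 0.00466). Both thus stood higher in Nynrin-KO, from low levels in WT. Meis1 met the filter of at least 1 FPKM in at least 4 libraries through Nynrin-KO alone. The filter thus fixed its direction, and its p is no separate support. The 4 WT libraries (WT1 to WT4) came from Nynrin+/+ and the 4 Nynrin-KO libraries (KO1 to KO4) from Nynrin-/- leukaemia, at an age and on a strain that the labels do not state. Whether each library is a mouse of its own is not stated either, so p-values refer to the spread among libraries, which may be technical.

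The mitochondrial ribosome sits on the matrix side of the inner membrane and makes only the few proteins encoded by mitochondrial DNA, all of them subunits of the respiratory chain and ATP synthase. Its rRNAs come from mitochondrial DNA, whereas every one of its proteins is encoded in the nucleus, made in the cytosol and imported. Some of these proteins have bacterial homologues and others are specific to mitochondria. The machine is of interest in acute myeloid leukaemia because leukaemic stem cells are known for their reliance on oxidative phosphorylation.

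Several features of the libraries bear on every value below. The recovered depth was lowest in KO3 (1826000 reads) and WT3 (1961000 reads) and highest in WT1 (33073000 reads), so that the median member rested on 24 reads in KO3 and 968 in WT1. The 12 markers of mature neutrophils, of which 7 rose and none was at 0 in a whole group, summed to 3001 to 104600 FPKM in WT and 124800 to 283000 FPKM in Nynrin-KO. Ly6g, the antigen by which Gr-1-positive cells were sorted away, went against the gate, at 0.707 to 49.3 FPKM in WT and 93.5 to 264 FPKM in Nynrin-KO (log2 change 3.23, limma adjusted p = 0.0381). Of 9 monocyte and macrophage markers 4 rose (sums of 1124 to 2387 and 1665 to 3678 FPKM), of 5 mast cell and basophil markers 3 (6.20 to 11.4 and 47.2 to 112 FPKM) and of 3 tested erythroid markers 3 (0.202 to 2.07 and 8.78 to 47.7 FPKM for the 7 listed). Of 3 tested B cell markers 1 rose (20 to 27.5 and 19.1 to 37.2 FPKM). The 5 T and NK cell markers summed to 0.778 to 10.2 and 95.9 to 225 FPKM. Only 1 of those 5 was tested, with a log2 change of 5.14, and the median gene of the 5 averaged 0.81 FPKM in Nynrin-KO. The 3 tested erythroid markers and 1 mast cell and basophil marker passed the filter through Nynrin-KO alone, which fixed their direction. Among B cell markers 1 passed through 1 group alone. Beyond the fit with a neutrophil covariate given below, the part of these cell types in the results was not tested. The 6 stem and progenitor markers, 2 of them lower and 2 higher, summed to 90.04 to 239.5 FPKM in WT and 33.7 to 57.1 FPKM in Nynrin-KO; Kit, the sorted antigen, stood at 2.63 to 6.40 and 2.92 to 4.91 FPKM. Nynrin itself lay at 0.008 to 0.286 FPKM in WT and 0.0982 to 0.437 FPKM in Nynrin-KO, which does not check the labels. The sex-linked gene Xist was at 15.2 to 26.5 FPKM in WT, 12.7 in KO1 and at most 0.366 in KO2, KO3 and KO4, while Ddx3y, on the Y chromosome, reached 0.111 FPKM at most in WT, 2.18 in KO1 and 18.2 to 20.7 in the other 3. KO1 thus holds both transcripts, and with sex following genotype in the other 7 libraries the effects of sex and genotype cannot be separated.

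As a group, the mitochondrial ribosomal protein genes were lower in Nynrin-KO. Of the 76 members that passed the filter of at least 1 FPKM in at least 4 libraries, 28 fell and none rose (limma, adjusted p under 0.05), against 13.8% of all 12524 genes tested that fell and 14.0% that rose. At an unadjusted p under 0.05, 53 members were lower and 1 was higher, a threshold for which no share of all genes was taken. Voom on recovered reads called 44 members lower and none higher, 57.9% of members beside 18.7% of all genes that fell in that fit. The log2 change was below zero in 72 of the 76, with a median of -0.63, beside a median of -0.03 over all genes tested. No member passed the filter through 1 group alone. In 33 members every Nynrin-KO library lay below every WT library and in none the reverse, where 15.0% and 16.7% of all genes tested did so. In a bulk sample, fewer cells of a type and less RNA per cell cannot be told apart.

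The size of the group's count depends on which libraries enter. Without WT1, WT2, KO1 or KO2 in turn, 15, 16, 17 and 16 members fell (12 large subunit members each time, and 3, 4, 5 and 4 small subunit members), and with both WT1 and KO1 left out 7 fell (median -0.49). In the 4 fits with 1 library left out, 19.7%, 21.1%, 22.4% and 21.1% of members fell, beside 10.5%, 9.66%, 10.4% and 10.6% of all genes tested. By subunit, 25% of the large subunit members fell each time, and 10.7%, 14.3%, 17.9% and 14.3% of the small subunit members. Without WT1 the small subunit share was thus near that of all genes. Without WT1 and KO1 together the shares were near each other, 9.21% of members and 7.62% of all genes. They were 12.5% for the large and 3.57% for the small subunit, the latter below the share of all genes. With the mean level of the neutrophil markers as a covariate, which differs between the groups, no member was called, 10 were lower at an unadjusted p under 0.05, and the median was -0.36. In that fit limma called only 10 genes among all those tested.

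Members had very unequal FPKM, although each protein is present once or in a few copies per ribosome. FPKM is a value per length, here that of the longest GENCODE M21 transcript, so a ranking between genes depends on the annotated length. In WT1, Mrpl17 had 2782 reads over 7300 bases (11.5 FPKM) and Mrpl20 had 2060 reads over 810 bases (76.9 FPKM). Members called abundant below are those high in FPKM, and the part of annotated length in levels and sums was not tested. The mean level in WT had a median of 14.1 FPKM over the large subunit genes and 9.63 FPKM over the small subunit genes. The highest was Mrpl36, a short protein of the large subunit with a bacterial homologue, at 70.3 ± 14.6 FPKM in WT (SD, n = 4), followed among large subunit genes by Mrpl20 at 59.8 ± 16.3 FPKM. Mrps15 (44.7 ± 9.57 FPKM) and Mrps21 (33.7 ± 5.3 FPKM), both rRNA-binding proteins with bacterial homologues, were the highest of the small subunit.

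At the other end stood Mrpl53 and Mrps34, which failed the filter and were not tested. Mrpl53 (mm10 chromosome 6, 83109040 to 83109939) had 2 reads in KO1 and none in the other 7 libraries, below the 3 reads taken as a floor. Mrps34 (chromosome 17, 24895116 to 24897502) was at 1.94, 0.45, 0.811 and 1.35 FPKM in WT1 to WT4 and at 0.224, 0.599, 0.581 and 0.703 FPKM in KO1 to KO4, from 2 to 121 reads. Both lie under other genes in the annotation. Of the exonic bases of Mrpl53, 88.0% belong also to exons of Gm42688 on the same strand, and of those of Mrps34 77.8% belong also to other genes, most of them Mapk8ip3 on the opposite strand. The only other member above 50% is Mrps25, with 69.8% shared, mostly with Nr2c2, and a level of 4.06 FPKM in WT, while 45 members share no exonic base. The sources used here do not give how reads in shared exons were counted, and the part of this overlap in the low values was not tested.

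**Figure D1:**
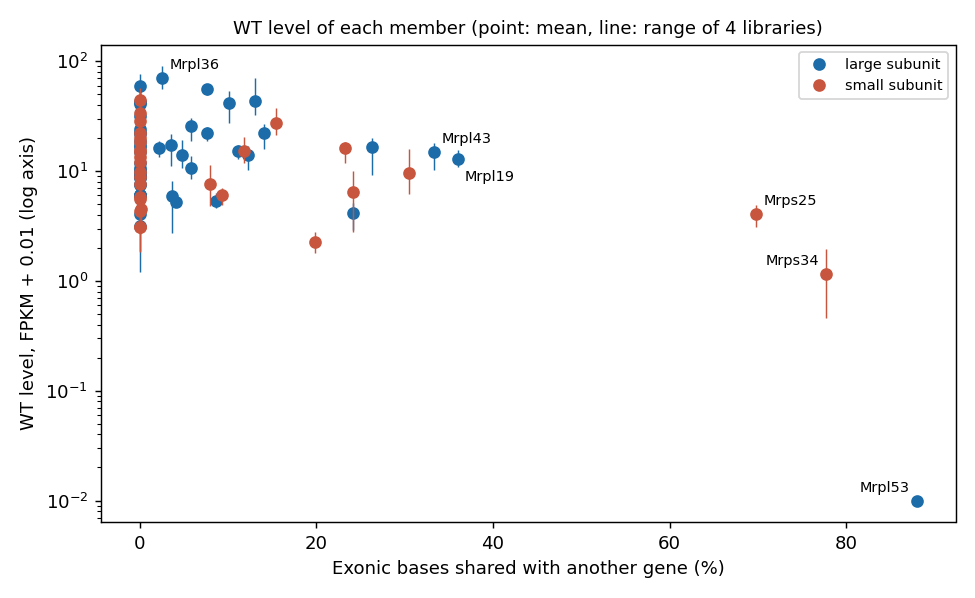
Mean level of each member in WT (FPKM + 0.01, log axis, lines give the range of the 4 libraries) against the share of its exonic bases that another gene also covers. Mrpl53, Mrps34 and Mrps25 are the only 3 members above 50%, and Mrpl53 and Mrps34 have the lowest levels.

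In the large subunit, 20 of 48 tested members fell, none rose, and the median log2 change was -0.63. The fall was largest for Mrpl12 (ENSMUSG00000039640, chromosome 11, 120484613 to 120489065), the protein of the flexible stalk that recruits translation factors to the ribosome. WT1 to WT4 had 69.9, 32.4, 37.9 and 32.7 FPKM of this mRNA, and KO1 to KO4 had 10.6, 15.4, 10.4 and 17.1 FPKM. Every Nynrin-KO library was below every WT library, and WT1 stood far above the other WT libraries. The log2 change of Mrpl12 was -1.58 (SE 0.29, limma adjusted p = 0.00502), and it was still lower without WT1, at -1.33.

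Mrpl10 and Mrpl11, with Mrpl12 the members listed for the stalk, did not pass. Mrpl10, which holds Mrpl12 on the ribosome, went from 22.03 ± 4.97 to 13.0 ± 3.9 FPKM (log2 change -0.74, limma adjusted p = 0.0639, not passed), with KO1 at 16.6 FPKM above WT3 at 15.8 FPKM. Mrpl11, at the base of the stalk, lay between 2.68 and 5.80 FPKM in WT and between 1.80 and 2.56 FPKM in Nynrin-KO. Those groups did not overlap, yet the difference of -0.61 did not pass (limma adjusted p = 0.0555). Without WT3 both passed (limma adjusted p = 0.042 for Mrpl10 and 0.0217 for Mrpl11).

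The next largest falls were of Mrpl54, Mrpl34, Mrpl36 and Mrpl42. Mrpl36 (chromosome 13, 73328513 to 73332178), the most abundant member, was at 90.01, 71.2, 64.6 and 55.5 FPKM in WT1 to WT4 and at 25.4, 30.9, 20.8 and 37.1 FPKM in KO1 to KO4, a log2 change of -1.28 (SE 0.23, limma adjusted p = 0.00512). Mrpl34, like Mrpl36 a short protein with a bacterial homologue, ran from 29.4 to 51.9 FPKM in WT and from 9.02 to 17.4 FPKM in Nynrin-KO, a log2 change of -1.49. In both genes the lowest WT library stayed above the highest Nynrin-KO library.

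Mrpl42 and Mrpl54 are specific to mitochondria and have no bacterial counterpart. Mrpl42 was at 32.6, 22.7, 18.8 and 17.2 FPKM in WT1 to WT4 and at 8.66, 9.501, 7.35 and 9.13 FPKM in KO1 to KO4 (log2 change -1.27, SE 0.21, limma adjusted p = 0.00402). Mrpl54 was at 34.6 to 59.5 FPKM in WT and at 15.0, 19.9, 5.44 and 19.6 FPKM in KO1 to KO4, a log2 change of -1.57. The value of KO3 for Mrpl54 rests on 6 reads.

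Other functional sites of the large subunit were less uniform. Mrpl23, at the rim of the exit tunnel for the growing chain, went from 7.67 ± 2.57 to 3.23 ± 0.505 FPKM (log2 change -0.99, limma adjusted p = 0.0131). A processed copy, Mrpl23-ps1, has a row of its own at 0.878 to 7.24 FPKM in WT and 0.673 to 3.91 FPKM in Nynrin-KO, so reads may be split between the pair. Mrpl24, a neighbour at the same rim, was at 16.5 ± 5.06 and 15.3 ± 0.468 FPKM, a log2 change of -0.04 (SE 0.24). Mrpl45, which contacts the inner membrane beside the tunnel exit, was at 11.2 to 12.6 FPKM in WT and 7.43 to 11.5 FPKM in Nynrin-KO, a log2 change of -0.39 that did not pass (limma adjusted p = 0.114).

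Mrpl20, an rRNA-binding protein with a bacterial homologue, was at 41.5 to 76.9 FPKM in WT and 23.4 to 33.5 FPKM in Nynrin-KO (log2 change -0.94, limma adjusted p = 0.018). The call of Mrpl20 was lost without WT2 (limma adjusted p = 0.0561) or KO1 (0.0517). Mrpl3, next to the catalytic centre, had a log2 change of -0.34 with overlapping groups, and Mrpl44, whose fold resembles RNase III, one of -0.63 (limma adjusted p = 0.0596); neither passed, though Mrpl44 did without KO4 (0.0383). Mrpl58, which is related to release factors and is built into the ribosome, had a log2 change of -0.48, Mrpl37 one of -0.68 and Mrpl41 one of -0.28, all short of the threshold, which Mrpl37 met without WT3 (limma adjusted p = 0.0374). Mrpl46 and Mrpl47 were called lower (log2 changes of -0.72 and -0.67) although 1 Nynrin-KO library of each overlapped the WT range. Leaving out any 1 library except WT3 or KO4 lost the call of Mrpl46 (limma adjusted p up to 0.122), and leaving out WT1, WT2, WT4, KO1 or KO2 lost that of Mrpl47 (up to 0.0899).

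A further 13 members fell with log2 changes of -1.17 to -0.58, listed here after their values were seen. They are Mrpl1, Mrpl2, Mrpl9, Mrpl15, Mrpl16, Mrpl17, Mrpl18, Mrpl19, Mrpl27, Mrpl28 and Mrpl40 of the large subunit and Mrps14 and Mrps24 of the small subunit. Mrpl27, the third most abundant member, was at 62.3, 59.4, 54.6 and 49.3 FPKM in WT1 to WT4 and at 29.4, 21.97, 24.6 and 22.5 FPKM in KO1 to KO4 (log2 change -1.17, limma adjusted p = 0.0026). Its groups were far apart and each was narrow.

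The 4 members with a log2 change above zero were all in the large subunit, and none passed. Mrpl52, singled out after its value was seen, was highest of these at 3.35, 3.96, 1.19 and 3.999 FPKM in WT1 to WT4 and 3.82, 7.35, 6.39 and 4.76 FPKM in KO1 to KO4, a log2 change of 0.71 (limma adjusted p = 0.107). The value of WT3 for Mrpl52 rests on 2 reads.

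In the small subunit, 8 of 28 tested members fell, none rose, and the median log2 change was -0.62. Mrps28, the homologue of bacterial S1, showed the largest change of any member. It was at 40.6, 24.9, 25.4 and 24.4 FPKM in WT1 to WT4 and at 7.27, 8.14, 7.69 and 9.21 FPKM in KO1 to KO4 (ENSMUSG00000040269, chromosome 3, 8802146 to 8923918). The groups were far apart and the 4 Nynrin-KO libraries close together, with a log2 change of -1.69 (SE 0.20, limma adjusted p = 0.00152) and -1.52 without WT1.

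Mrps10 and Mrps16, both with bacterial homologues, also fell. Mrps10 ran from 5.36 to 9.42 FPKM in WT and from 3.46 to 4.36 FPKM in Nynrin-KO, a log2 change of -0.85 (limma adjusted p = 0.0098). Mrps16 ran from 8.50 to 10.9 FPKM and from 4.26 to 6.50 FPKM, a log2 change of -0.73 (limma adjusted p = 0.0134). In both genes the groups did not overlap.

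Several small subunit members named for their role did not pass. Mrps12, at the decoding centre, was at 33.1, 23.5, 11.5 and 21.1 FPKM in WT1 to WT4 and at 12.4, 12.1, 11.8 and 15.1 FPKM in KO1 to KO4, with a log2 change of -0.67 (limma adjusted p = 0.11). WT3, a shallow library, lay below all Nynrin-KO libraries for Mrps12 and the other 3 WT libraries above them; without WT3 the difference passed (limma adjusted p = 0.0139). Mrps7 in the head had a log2 change of -0.63, and Mrps2, Mrps5 and Mrps15 had log2 changes of -0.66, -0.56 and -0.63. The mitochondria-specific proteins Mrps22 and Mrps35 had log2 changes of -0.60 and -0.39. Mrps22 and Mrps5 also passed without WT3 (limma adjusted p = 0.0221 and 0.0497). Mrps21, among the most abundant, had a log2 change of -0.06 (SE 0.18), with all but 2 of its 8 values between 28.5 and 33.9 FPKM.

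**Figure D2:**
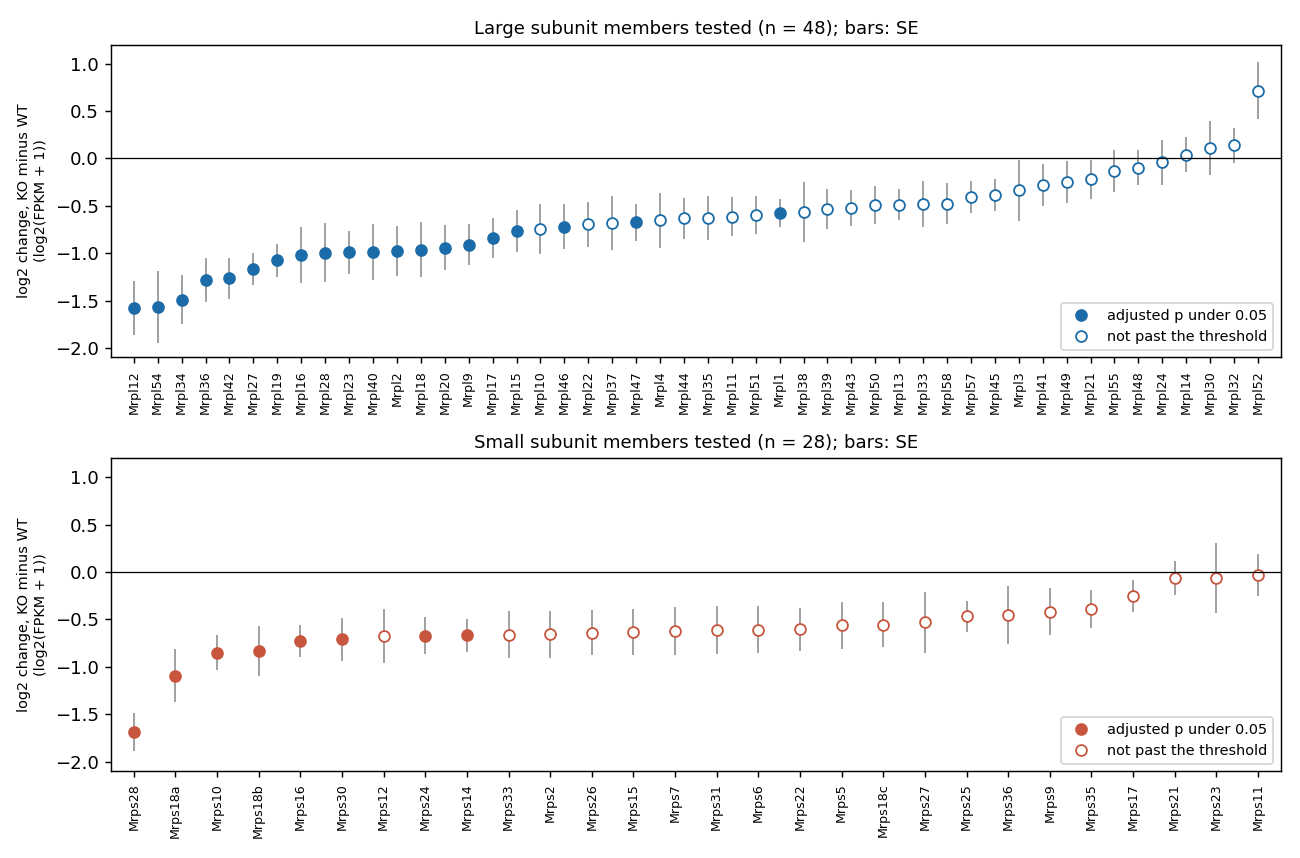
Log2 change from WT to Nynrin-KO on the log2(FPKM + 1) scale for each tested member of the large (48) and small (28) subunit, with SE bars; filled points passed an adjusted p of 0.05. All filled points lie below zero, 20 in the large and 8 in the small subunit.

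The 3 paralogues of bacterial S18 occupy different places in the mitochondrial ribosome: Mrps18c takes the bacterial position, Mrps18b another site on the small subunit, and Mrps18a sits in the large subunit. Mrps18a was at 20.1, 14.1, 12.4 and 12.7 FPKM in WT1 to WT4 and at 7.74, 6.82, 3.21 and 8.88 FPKM in KO1 to KO4, a log2 change of -1.09 (SE 0.28, limma adjusted p = 0.021). Without WT1 the adjusted p of Mrps18a in limma was 0.0557. Mrps18b fell from 9.63 ± 4.25 to 4.70 ± 0.795 FPKM, a log2 change of -0.83 (limma adjusted p = 0.0419), and that call was lost without any 1 library except WT3 (limma adjusted p of 0.0542 to 0.104). For Mrps18c the means were 16.2 ± 3.03 and 10.9 ± 3 FPKM, with KO2 and KO4 inside the WT range, and the log2 change of -0.55 did not pass (limma adjusted p = 0.116). The 3 SEs are 0.28, 0.26 and 0.24, and the differences among the paralogues were not tested.

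Set side by side, the subunits gave near-equal medians (-0.63 and -0.62 on the log2 scale) but a different balance of summed levels. Large subunit genes summed to 1172, 924, 750 and 808 FPKM in WT1 to WT4 and 486, 530, 425 and 592 FPKM in KO1 to KO4. Small subunit genes summed to 484, 380, 286 and 339 FPKM in WT1 to WT4 and 220, 234, 222 and 271 FPKM in KO1 to KO4. For both subunits every Nynrin-KO sum lay below every WT sum.

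The ratio of the large to the small sum averaged 2.46 ± 0.106 over the WT and 2.14 ± 0.155 over the Nynrin-KO libraries, with ranges of 2.38 to 2.62 and 1.91 to 2.26 that did not overlap. A sum weights genes by their level. Abundant large subunit genes with large falls include Mrpl12, Mrpl20, Mrpl34, Mrpl36 and Mrpl54, picked after their values were seen. In the small subunit Mrps28, at 28.8 FPKM in WT, had a log2 change of -1.69. Mrps15 at 44.7 FPKM and Mrps21 at 33.7 FPKM had log2 changes of -0.63 and -0.06. The part of single genes in the ratio was not tested. With each gene weighted equally, the mean log2 level of the tested large subunit genes exceeded that of the small subunit genes by 0.43 to 0.49 in WT and by 0.39 to 0.44 in Nynrin-KO, ranges that overlap. Moving Mrps18a and Mrps30 to the large subunit, where their proteins sit, and setting aside Mrps36, which is now known as part of the 2-oxoglutarate dehydrogenase complex, raised the ratio to 2.84 ± 0.176 and 2.45 ± 0.113. Under that split 22 of 50 large and 6 of 25 small subunit genes fell; Mrps30 itself had a log2 change of -0.71 (limma adjusted p = 0.0455), a call lost without any 1 library except KO4 (0.0567 to 0.11). The difference between subunits was not tested.

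**Figure D3:**
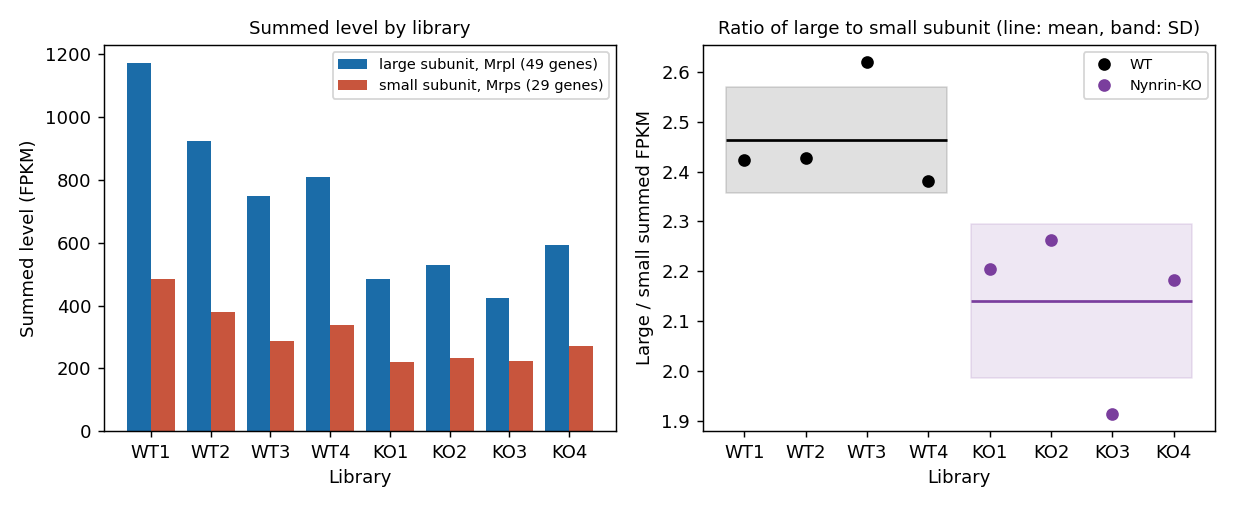
Summed FPKM of large (49) and small (29) subunit genes in each library, and their ratio, with the mean as a line and the SD as a band (the ratio axis does not start at 0). The ratio was 2.38 to 2.62 in WT and 1.91 to 2.26 in Nynrin-KO. KO3, the shallowest library, was lowest, and WT3, the next shallowest, was highest.

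The members can also be grouped by origin, into those with a bacterial homologue and those specific to mitochondria. Of 46 tested members with a homologue 21 fell (45.65%, median log2 change -0.66). Of 29 tested mitochondria-specific members 7 fell (24.1%, median -0.57), beside 13.8% of all genes tested. In the large subunit by place 16 of 30 with a homologue (53.3%) and 6 of 20 mitochondria-specific members (30%) fell. In the small subunit the counts were 5 of 16 (31.25%) and 1 of 9 (11.1%), the last below the share of all genes. Mrps18a and Mrps18b, which are paralogues of bacterial S18 outside its bacterial position, were counted here as mitochondria-specific. Both fell, and Mrps18b is the 1 of 9, so the counts by origin depend on where these paralogues are placed. The homologue group also had the higher levels, with a median WT mean of 15.3 against 9.63 FPKM, and the scale used understates changes of low genes; the difference between the groups was not tested.

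Within each group the members tended to be high or low in the same libraries. WT1 gave the highest WT value in 58 of 76 tested members and WT3 the lowest in 52, while KO4 gave the highest Nynrin-KO value in 44 and KO3 the lowest in 44. WT1 and KO4 are the deepest libraries of their groups and WT3 and KO3 the shallowest. The repeat-like gene model Gm10800 was at 6076, 69970, 142300 and 37303 FPKM in WT1 to WT4. In KO1 to KO4 Gm10800 was at 28612, 3349, 126900 and 3990 FPKM. KO2 was thus lowest in it, yet gave the highest Nynrin-KO value in only 13 members. The neutrophil markers summed to 3001, 81039, 55487 and 104570 FPKM in WT1 to WT4. In KO1 to KO4 they summed to 283010, 124840, 214350 and 193200 FPKM. The parts of depth, Gm10800 and neutrophil level in this pattern were not tested. With Gm10800 as a covariate 49 of 76 members fell (median -0.76), beside 20.6% of all genes, and in the 5 libraries high in it 8 fell (median -0.67), beside 5.88%. The coefficient of variation over 4 libraries had a median of 24.6% in WT and 22.1% in Nynrin-KO for the large subunit, and 24.9% and 20.99% for the small subunit. Among the 26 members with at least 30 reads in every library, 10 fell, with a median log2 change of -0.63.

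Many members share a start region with another gene. A protein-coding gene on the opposite strand starts within 1000 bases upstream of 19 of the 78 members (24.4%), compared with 7.40% of 21168 protein-coding genes of the table. A pair of members also face each other: the starts of Mrps11 and Mrpl46 lie on opposite strands with first exons that overlap, 413 bases from one start to the other. Mrps11, a protein of the small subunit platform, was at 11.5, 7.49, 4.83 and 6.59 FPKM in WT1 to WT4 and at 7.49, 7.02, 6.74 and 7.19 FPKM in KO1 to KO4, the log2 difference nearest zero of any tested member (log2 change -0.03, SE 0.22). Mrpl46 was at 16.02, 16.8, 10.3 and 13.1 FPKM in WT1 to WT4 and at 7.35, 8.18, 5.79 and 11.7 FPKM in KO1 to KO4 (log2 change -0.72, SE 0.23, limma adjusted p = 0.0472). The difference between these neighbours was not tested, and without strand the reads of the 173 shared exonic bases cannot be assigned.

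Promoter sequence was sought for the 2 largest falls of each subunit by symbol, but none was found for Mrps28, the largest of all, and Mrpl54. Sequences are shown for Mrpl12 and Mrps18a. That of Mrps11, whose log2 difference was nearest zero, is shown so that the start regions can be compared. Each runs from 250 bases before the start to 30 after it, 5′ to 3′ on the gene's strand, from RefSeq (GRCm38.p6). Capitals mark every match on either strand to the 6 motifs searched, namely the NRF1 palindrome, CCGGAAG (ETS factors), AAGATGGC (YY1), CACGTG (E-box), CCAAT and GGGCGG (GC box), none of which overlap in these 3 windows.
Mrpl12, chr11:120484387-120484666, plus strand: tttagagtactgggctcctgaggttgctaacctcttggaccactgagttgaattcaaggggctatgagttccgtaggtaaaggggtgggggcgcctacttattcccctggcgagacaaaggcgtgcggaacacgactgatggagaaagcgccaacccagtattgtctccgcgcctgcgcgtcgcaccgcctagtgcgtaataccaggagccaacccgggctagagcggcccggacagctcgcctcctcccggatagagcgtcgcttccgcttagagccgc
Mrps18a, chr17:46110754-46111033, plus strand: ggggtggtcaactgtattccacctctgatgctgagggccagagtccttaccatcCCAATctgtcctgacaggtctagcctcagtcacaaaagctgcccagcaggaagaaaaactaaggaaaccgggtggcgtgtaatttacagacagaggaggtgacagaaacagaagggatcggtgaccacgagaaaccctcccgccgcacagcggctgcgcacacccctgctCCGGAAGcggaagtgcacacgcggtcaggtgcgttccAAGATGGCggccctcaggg
Mrps11, chr7:78782881-78783160, plus strand: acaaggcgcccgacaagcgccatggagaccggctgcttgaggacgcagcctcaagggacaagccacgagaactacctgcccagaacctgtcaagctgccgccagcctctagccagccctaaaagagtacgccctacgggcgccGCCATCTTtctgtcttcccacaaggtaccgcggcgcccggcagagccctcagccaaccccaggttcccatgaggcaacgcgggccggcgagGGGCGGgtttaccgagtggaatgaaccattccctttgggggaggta

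The window of Mrpl12 holds none of the 6 motifs. That of Mrps18a holds a CCAAT box, an ETS motif just before the start and a YY1 motif just after it, and that of Mrps11 a YY1 motif on the minus strand and a GC box. Promoters were found for 69 of the 78 members. An ETS motif is in 33.3% of them, compared with 19.8% of 7852 promoters of genes tested and 8.70% of 27025 promoters in all. The YY1 motif is in 11.6%, 4.09% and 2.38% of the same sets, the NRF1 motif in 4.35%, 2.11% and 0.914%, the E-box in 7.25%, 10.4% and 6.89%, CCAAT in 36.2%, 39.3% and 36.6%, and the GC box in 49.3%, 62.1% and 34.9%. Between members that fell and tested members that did not, the ETS motif was in 25% of 24 and 36.4% of 44 promoters, and the E-box in 12.5% and 4.55%. These matches are descriptions and were not tested.

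Few genes of the other machinery of mitochondrial translation were called. Of 66 tested genes in 4 lists (translation factors, ribosome assembly and rRNA modification, transcription and RNA processing, membrane insertion and translational activators) 6 fell and none rose in limma, a share of 9.09% beside the 13.8% of all genes tested, with a median log2 change of -0.18. Without WT1 the count was 2 and without KO2 it was 3. At an unadjusted p under 0.05, 12 were lower and 3 higher. Voom on recovered reads called 12 lower, 18.2% beside 18.7% of all genes in that fit. It called 4 higher, namely Polg, Angel2, Mterf3 and Mterf4. None of the 13 translation factors passed limma, and 4 were lower at an unadjusted p under 0.05, while voom on recovered reads called 4. Tufm, the elongation factor that brings aminoacyl-tRNA, was at 21.5 ± 7.4 and 10.1 ± 4.3 FPKM, a log2 change of -1.07 with groups that did not overlap (limma adjusted p = 0.0561). Gfm1, which drives translocation, and Guf1, a related GTPase, had log2 changes of -0.65 and -0.50, which passed without KO4 (limma adjusted p = 0.0338) and without KO3 (0.0338). Above zero stood Mtrf1l, Gfm2 and Mtif3, with log2 changes of 0.25, 0.22 and 0.01.

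Among assembly factors 2 of 24 fell, 8.33% beside the 13.8% of all genes tested. Noa1, a GTPase of small subunit assembly, went from 7.18 ± 1.58 to 3.69 ± 0.587 FPKM (log2 change -0.79, limma adjusted p = 0.016), and Fastkd2, which binds the large rRNA, from 3.66 ± 0.646 to 1.80 ± 0.479 FPKM (log2 change -0.74, lost without WT1 at a limma adjusted p of 0.0591). Rcc1l had a log2 change of -0.81 that passed only without WT3 among the fits with 1 library left out (limma adjusted p = 0.0196). In the other direction Mterf3, a protein of mitochondrial ribosome assembly, was at 4.11 to 6.72 FPKM in WT and 7.49 to 10.5 FPKM in Nynrin-KO, groups that did not overlap, with a log2 change of 0.52 that did not pass (limma adjusted p = 0.0642). Mterf4 and Eral1 had log2 changes of 0.38 and 0.43.

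Of 22 tested genes of mitochondrial transcription and RNA processing 4 fell, 18.2% beside the 13.8% of all genes tested. Elac2 and Prorp, the nucleases that cut tRNAs out of the primary transcripts, fell by 1.06 and 0.90 on the log2 scale. Ssbp1, which binds single-stranded mitochondrial DNA, fell by 0.71. Lrpprc, which stabilises mitochondrial mRNAs and is named here beyond the rule, fell by 0.89. With 1 library left out the calls of Prorp (WT1, WT2 or KO2), Ssbp1 (WT1 or KO2) and Lrpprc (WT1, WT2, KO1 or KO2) were lost, at limma adjusted p-values of 0.0509 to 0.0643. Polg, the polymerase that copies mitochondrial DNA, was at 2.04 to 2.34 FPKM in WT and 2.72 to 3.83 FPKM in Nynrin-KO without overlap, a log2 change of 0.45 that did not pass (limma adjusted p = 0.0559). Angel2 and Ptcd1 had log2 changes of 0.52 and 0.49, and Polg and Angel2 passed without KO3 (limma adjusted p = 0.03 and 0.0436). None of the 8 genes of membrane insertion and activation passed, at an adjusted or an unadjusted p under 0.05, in limma, and none was called by voom; Mpv17l2, Letm1 and Mtres1 had log2 changes of -0.81, -0.37 and -0.16, and Taco1 one of 0.01.

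None of the 5 mitochondrial ribosomal proteins whose symbols escape the rule passed limma. These genes, among them Ptcd3 (-0.55), Aurkaip1 (-0.52) and Gadd45gip1 (-0.49), had log2 changes of -0.73 to -0.31, a median of -0.52. At an unadjusted p under 0.05, 3 of them were lower in limma, and voom called 1. The rRNAs these proteins bind were measured as mt-Rnr1 (384 ± 83.1 and 426 ± 79.6 FPKM) and mt-Rnr2 (22420 ± 3871 and 17010 ± 3295 FPKM), and neither passed limma with or without adjustment. None of the 13 mitochondrially encoded mRNAs passed limma, with 1 higher at an unadjusted p under 0.05 and 1 called higher by voom; their median log2 change was -0.06. The former was mt-Nd6, at 214.5 to 326 FPKM in WT and 348 to 437.7 FPKM in Nynrin-KO, with a log2 change of 0.58 (limma adjusted p = 0.0622, and 0.042 without WT3). The log2 changes of mt-Nd2 and mt-Nd4 were 0.47 and 0.43, and those of mt-Atp6, mt-Nd3 and mt-Nd1 were -0.24, -0.23 and -0.20.

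The cytoplasmic ribosome and the respiratory chain give the wider setting. Of 81 tested cytoplasmic ribosomal protein genes 79 fell (median log2 change -1.90), and of 75 tested nuclear-encoded genes of the respiratory chain, whose partner subunits the mitochondrial ribosome makes, 52 fell (median -0.98; 33 without WT2). The summed level of the members amounted to 2.52% to 3.24% of the cytoplasmic ribosomal protein sum in WT and 6.12% to 6.87% in Nynrin-KO, and to 12.8% to 15.0% and 19.2% to 22.1% of the respiratory chain sum. Neither pair of ranges overlapped. These lists differ in level, and low genes show smaller changes on the log2(FPKM + 1) scale; the differences between lists were not tested.

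**Figure D4:**
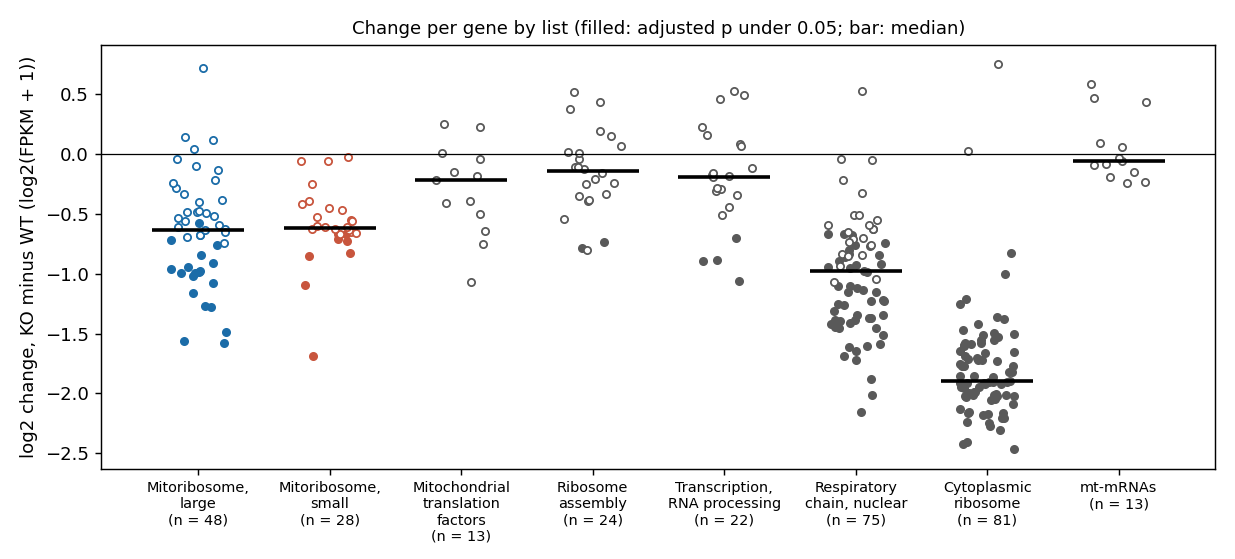
Log2 change from WT to Nynrin-KO for each tested gene of the mitochondrial ribosome, 3 companion lists (translation factors, assembly, transcription and RNA processing), the nuclear-encoded respiratory chain, the cytoplasmic ribosome and the mitochondrially encoded mRNAs (filled: adjusted p under 0.05; bar: median). The medians are -0.63 and -0.62 for the subunits of the mitochondrial ribosome, -0.98 for the respiratory chain and -1.90 for the cytoplasmic ribosome.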

How the data were processed

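RNA-seq libraries of sorted leukaemia stem cells were compared, 4 WT and 4 Nynrin-KO, from 1 table of 48500 genes whose Mrpl and Mrps rows were selected by symbol. The authors deposited the values as FPKM (read as such because the value times transcript length adds up to nearly the same total in every library), and per the submitters' processing notes Bowtie 0.12.9, Cufflinks 2.1.1, HTSeq and the mm10 build were used; how reads were counted, whether strand was used, and what became of multiply matching reads are not stated in these sources. Dividing FPKM times the longest GENCODE M21 transcript by 1 step per library gave whole reads for 99.3% to 99.6% of the low values checked (tolerance 0.1 read), and read numbers come from this.

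The 12524 genes that reached 1 FPKM in 4 or more libraries entered limma 3.58.1 (R 4.3.3), fitted to log2(FPKM + 1) with genotype as its only term and with the robust and trend options. Tests were 2-sided, and p-values were adjusted by Benjamini-Hochberg across all those genes. A call is an adjusted p under 0.05. Fold changes on this scale understate the change of low genes. The script was tested on simulated data.

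The members and all gene lists were chosen with earlier results of these data known. Members were named by role, by the 5 largest falls per subunit, by the 2 highest levels per subunit, by failing the filter, or by being called with overlapping groups (36 in all). In the lists of mitochondrial translation and mitochondrial transcripts up to 3 genes per direction of the log2 change with the smallest p were named. Alternatives covered pseudocount, filter, scaling, limma options, weights, covariates, voom on the recovered reads, the threshold, the subunit split, left-out libraries and the replicate number as a block. The correlations among members planned over 4 libraries were not computed, since 4 points are too few. Plots used Python 3.11.15 and matplotlib 3.10.9.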

Additional observations from a re-analysis of the deposited data

Results flagged for a closer look

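Of 154 groups of 4 libraries examined, 7 held a library far from the other 3, where chance gives about 1 in 20. In WT, WT1 stood alone for Mrpl12 (69.9 FPKM against 32.4 to 37.9) and for Mrps28 (40.6 FPKM against 24.4 to 25.4), the deepest of the WT libraries in both. In Nynrin-KO, KO4 stood above the others for Mrps10 (4.36 FPKM against 3.46 to 3.49), KO3 below them for Mrps5 (1.10 FPKM against 1.87 to 1.98), and KO1 alone had reads of Mrpl53 (0.297 FPKM against 0), 2 in number. Among companion genes, WT3 was alone for Ptcd1 (0.99 FPKM against 3.20 to 3.53) and KO3 for Ptcd3 (7.35 FPKM against 10.9 to 11.3), both below the others.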

How the results depend on the processing

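No member rose under any alternative, and the median log2 change of the members stayed below zero, from -0.36 to -0.76. The counts were less stable. Members, large and small subunit members that fell, in that order, numbered 8, 7 and 1 with no filter on low values (where many more genes are tested), 8, 7 and 1 in the 5 libraries high in Gm10800 (fewer samples), 7, 6 and 1 without both WT1 and KO1, 8, 6 and 2 at an adjusted p under 0.01, 49, 31 and 18 with Gm10800 as a covariate, and 0, 0 and 0 with the neutrophil level as a covariate (medians -0.36, -0.41 and -0.27). With no filter 10.3% of members and 3.45% of the small subunit fell, beside 1.87% of all genes. In the 5 libraries these shares were 10.5% and 3.57%, beside 5.88% of all genes. With Gm10800 as a covariate they were 64.5% and 64.3%, beside 20.6%. Voom called 44 members and 14 small subunit members lower, and array weights 13 small subunit members. Leaving out WT3 and KO3 together, added after seeing the data, gave 14 small subunit members. Leaving out 1 library at a time gave 15 to 38 members, 12 to 26 large and 3 to 12 small subunit members, with medians of -0.73 to -0.50, -0.77 to -0.54 and -0.73 to -0.47. The genes of the 4 companion lists that fell numbered 2 to 9 in those fits. They numbered 0 with no filter, without WT1 and KO1, in the 5 libraries, with the neutrophil covariate and at 0.01. With array weights or without WT3 and KO3 they numbered 11, a share of 16.7% beside 19.6% and 16.4% of all genes. With Gm10800 as a covariate 13 fell (19.7% beside 20.6%), and with voom 12 (18.2% beside 18.7%). Respiratory chain genes that fell numbered 33 to 61 with 1 library left out, 30 with no filter, 24 without WT1 and KO1, 25 in the 5 libraries, 24 at 0.01 and 0 with the neutrophil covariate, where cytoplasmic ribosomal protein genes also numbered 0; these were 77 to 78 with 1 library left out. Where no construction shows it, the cause was not tested.

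The ratio of large to small sums by place in the ribosome was 2.84 in WT and 2.45 in Nynrin-KO. With the replicate number as a block 19 members fell, 14 large and 5 small. The deviations of same-numbered libraries had correlations of -0.21, -0.39, 0.33 and 0.01. These values are too few, and too mixed in sign, to decide whether the number marks a pairing. WT3 and KO3, at 0.33, were also the shallowest libraries of their groups and the highest in Gm10800. In at least 20 of 23 alternative fits 8 members were lower, namely Mrps28, Mrpl12, Mrpl27, Mrpl34, Mrpl36, Mrpl42, Mrpl19 and Mrpl54, and 19 tested members were lower in none. The filter with a mean of 5 FPKM moved the median of all genes to -0.13, where the members' median was -0.66. Depth limits the low members: in KO3, 47 of 78 members had under 30 reads.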
